A study of Mus musculus with 6 samples.

Results

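The collagen genes are the genes whose symbol is Col, a type number, the letter a and a chain number. They were taken by that symbol from RNA-seq counts of 6 mouse neuronal cultures, with a minimum of 6 reads in at least 1 library. All 44 collagen symbols in the count tables passed, out of 21876 genes that met the same minimum and 55357 genes in the tables. The member with the fewest reads in its best library was *Col17a1*, with 20, so that the minimum removed none. They comprised 11 fibrillar collagens, 8 basement membrane collagens (6 type IV chains with *Col15a1* and *Col18a1*) and 25 others, which were 9 fibril-associated collagens (FACITs), 6 type VI chains, 4 transmembrane collagens, 3 short-chain network collagens, *Col26a1*, *Col28a1* and *Col7a1*.

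Cultures of cortical and hippocampal neurons were prepared from wild-type C57BL/6N embryos at E18 on wells coated with laminin and poly-D-lysine. All received a lentivirus of the pLVTHM vector at day in vitro (DIV) 4 and were collected at DIV14. In 3 libraries (shCtrl) it carried a control hairpin, and in 3 (sh*Pla2g4e*) the single hairpin sh2 against *Pla2g4e*, an N-acyltransferase of phospholipid metabolism, at the lowest dose that brought the transcript down to the level the study had set as its target. The comparison asks which transcripts differ between maturing cultures given sh2 and those given the control hairpin. With the single hairpin, lower *Pla2g4e* and other effects of sh2 cannot be told apart. The labels do not say whether the libraries came from separate cultures or embryos, so the p-values measure the spread between these libraries, which may be technical.

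Collagens are secreted or membrane proteins in which 3 chains wind into a triple helix, and many need chains from several genes for that helix. Fibrillar collagens build the banded fibrils of connective tissue. Type IV collagen forms the sheet of every basement membrane, and types XV and XVIII sit at its edge. FACITs coat fibrils, type VI collagen makes beaded filaments, and the transmembrane collagens span the membrane of the cell that makes them. In brain, the collagen-rich structures are the meninges and the vessel walls, while neurons and glia make smaller amounts of several of these chains, some with roles at synapses and in axon targeting.

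The targeted gene was measured first, as a check of the labels. *Pla2g4e* had 38.0, 35.1 and 35.4 CPM (reads of a gene scaled to a common library size by the TMM method) in shCtrl libraries 1 to 3 and 21.8, 14.1 and 18.7 in sh*Pla2g4e* libraries 1 to 3. The groups did not overlap. The libraries held 17054717 to 23570180 counted reads. Markers of astrocytes were lower in sum in sh*Pla2g4e* libraries, at 2056 to 3253 CPM against 2982 to 3815 CPM in shCtrl over 12 genes with overlap, with 0 called higher and 3 lower (with the replicate number as a block, 1 and 7), and *Aqp4* fell from 120 to 184 CPM in shCtrl to 49.1 to 95.1 CPM. The neuron list summed to 5584 to 6054 CPM against 6099 to 6714 CPM over 12 genes, of which 2 were called higher (*Nefm* and *Nefl*) and 3 lower (*Tubb3*, *Map2* and *Rbfox3*), and *Tubb3* was at 90.9 to 98.4 CPM against 272 to 345 CPM. Over all genes tested 2.48% were called higher and 4.0% lower, and 6.50% and 9.02% with the block. In such bulk libraries, fewer cells of a type and less RNA per cell cannot be told apart.

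The promoters of 4 of the 5 collagen genes called at an adjusted p of 0.01 are shown because these genes carried the clearest differences. Each is the 250 bases before a RefSeq transcription start (GRCm38.p6), written 5′ to 3′ on the strand of the gene, with the CCAAT box (CCAAT or its reverse complement) and the TATA box (TATAAA or its reverse complement) in capitals. *Col9a1* and *Col6a2* have 2 starts each, of which the upstream window is shown for *Col6a2*, and the table of promoters held none for *Col22a1*.
Col10a1 (chr10:34389731-34389980, plus strand): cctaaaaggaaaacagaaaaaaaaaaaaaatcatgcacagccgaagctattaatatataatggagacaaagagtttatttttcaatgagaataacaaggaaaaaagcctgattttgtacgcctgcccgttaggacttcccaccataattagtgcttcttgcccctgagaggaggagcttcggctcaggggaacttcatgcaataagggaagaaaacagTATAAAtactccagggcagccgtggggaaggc
Col11a2 (chr17:34038888-34039137, plus strand): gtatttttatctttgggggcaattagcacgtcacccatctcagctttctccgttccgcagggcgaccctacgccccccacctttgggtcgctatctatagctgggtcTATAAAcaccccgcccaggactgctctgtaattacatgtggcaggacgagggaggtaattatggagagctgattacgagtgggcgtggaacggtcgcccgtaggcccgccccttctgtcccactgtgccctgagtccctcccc
Col9a1, upstream start (chr1:24177360-24177609, plus strand): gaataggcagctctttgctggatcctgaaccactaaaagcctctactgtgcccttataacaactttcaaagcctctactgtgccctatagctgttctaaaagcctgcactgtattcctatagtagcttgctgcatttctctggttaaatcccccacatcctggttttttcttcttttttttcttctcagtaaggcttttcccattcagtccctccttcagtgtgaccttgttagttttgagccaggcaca
Col9a1, downstream start (chr1:24194953-24195202, plus strand): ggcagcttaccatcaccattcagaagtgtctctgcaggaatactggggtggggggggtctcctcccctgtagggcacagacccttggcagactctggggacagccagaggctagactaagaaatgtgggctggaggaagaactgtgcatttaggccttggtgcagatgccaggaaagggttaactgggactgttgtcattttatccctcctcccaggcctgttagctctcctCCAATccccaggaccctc
Col6a2, upstream start (chr10:76623631-76623880, minus strand): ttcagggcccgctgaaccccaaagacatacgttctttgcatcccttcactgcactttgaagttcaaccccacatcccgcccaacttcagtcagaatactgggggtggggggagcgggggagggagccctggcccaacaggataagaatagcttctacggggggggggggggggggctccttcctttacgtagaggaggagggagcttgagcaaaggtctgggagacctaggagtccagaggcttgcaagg

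The 4 genes do not share a promoter layout. *Col10a1* and *Col11a2* each held 1 TATA box, the downstream start of *Col9a1* held 1 CCAAT box, and the 2 windows of *Col6a2* held neither. The downstream window of *Col6a2* (chr10:76623405-76623654) held 3 GC boxes (GGGCGG or its reverse complement) and the upstream window 1, that of *Col11a2* held 2, and those of *Col10a1* and *Col9a1* held 0. Promoters were found for 35 of the 44 collagen genes, with 38 starts. A CCAAT box lay in 34.2% of these 38 and in 34.3% of 17502 promoters of all genes tested, a TATA box in 13.2% against 7.62%, and a GC box in 57.9% against 51.2%. A match of letters is a description of the window and says nothing of a factor bound there.

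Levels of different collagen genes were compared as CPM per kb of exon, since long genes collect more reads. Exon length here covers all annotated exons of a gene, which can be far longer than its longest coding transcript. The lengths were 8176 and 2724 bases for *Col26a1*, 13028 and 2624 for *Col25a1* and 4380 and 4100 for *Col6a1*. The order of genes therefore depends on the length used. Per kb of exon, the highest collagen in shCtrl cultures was *Col6a1*, the α1 chain of type VI, at 17.7 ± 1.47 CPM per kb (SD, n = 3, as for all such levels). The type IV chains *Col4a2* and *Col4a1*, found together in basement membranes, followed at 12.2 ± 0.378 and 11.7 ± 1.17, and these 2 did not differ beyond their spread. *Col5a1* at 9.18 ± 1.52 and *Col26a1* at 8.80 ± 0.483 came next and overlapped each other. *Col16a1* was at 6.96 ± 0.316, *Col20a1* at 5.10 ± 0.525 and *Col4a5* at 3.89 ± 0.874. At the other end lay *Col6a6*, at 0.0283 ± 0.0168 CPM per kb, and *Col17a1*, the hemidesmosome collagen of skin, at 0.0465 ± 0.0237. Among the fibrillar collagens, the major chains of connective tissue were low. *Col1a1* was at 0.302 ± 0.163, *Col3a1* at 0.104 ± 0.0752 and *Col1a2* at 0.0981 ± 0.0343 CPM per kb, whereas *Col5a1*, which starts fibril formation, was the highest of its class. The network, FACIT, transmembrane and type VI genes, *Col10a1*, *Col6a6*, *Col13a1*, *Col17a1* and *Col14a1*, were the 5 that averaged under 1 CPM in shCtrl.

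**Figure D1:**
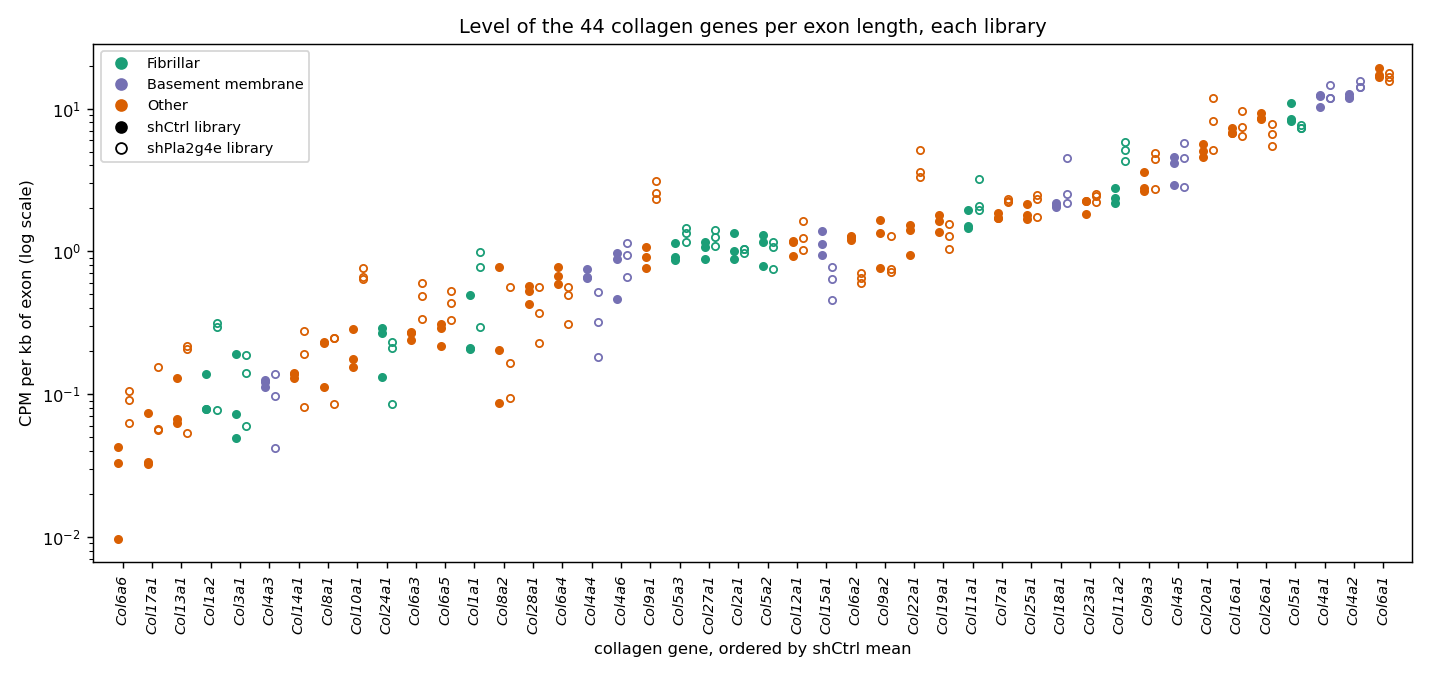
Level of each of the 44 collagen genes in CPM per kb of exon (log axis), 1 point per library, filled for shCtrl and open for shPla2g4e, coloured by class and ordered by the shCtrl mean. The genes run from Col6a6 at 0.0283 to Col6a1 at 17.7 CPM per kb in shCtrl, and the open points of Col22a1, Col9a1, Col11a2 and Col10a1 lie above all their filled points.

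Over all collagen genes the summed level was 721, 751 and 809 CPM in shCtrl libraries 1 to 3 and 813, 920 and 838 CPM in sh*Pla2g4e* libraries 1 to 3. Every sh*Pla2g4e* library was above every shCtrl library, by little for the nearest 2. The sum of the fibrillar class was 144 to 185 CPM against 170 to 199, and that of the basement membrane class 212 to 243 against 233 to 287. Both overlapped between groups. The sum of the other collagens did not overlap, at 356 to 380 CPM in shCtrl and 402 to 434 in sh*Pla2g4e* libraries.

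Of the 44 collagen genes, edgeR's quasi-likelihood test called 5 at an adjusted p of 0.01 (11.4%), beside 6.49% of all genes tested. *Col22a1*, *Col9a1*, *Col11a2* and *Col10a1* were higher in sh*Pla2g4e* cultures (4 of 44, beside 2.48% of all genes) and *Col6a2* was lower (1 of 44, beside 4.0%). Once group means were subtracted, libraries numbered 1 to 3 correlated with their namesakes at 0.392, 0.189 and 0.461, and others at 0.108 or less. Same-numbered libraries were therefore also taken as pairs, although the labels do not say what libraries of the same number share. Calls with the block rest on this pairing. With the replicate number as a block, 17 collagen genes (38.6%) were called, beside 15.5% of all genes. Of these, 12 were higher (6.50% of all genes were) and 5 lower (9.02% of all genes were), and all 5 genes called without the block were among them. Of the others, *Col4a4*, *Col15a1*, *Col26a1*, *Col1a1*, *Col1a2*, *Col6a3*, *Col11a1*, *Col18a1* and *Col20a1* were also called without the block when no minimum of reads was set, *Col4a4* by limma after voom, and *Col4a2* with scaling by library size alone. The libraries of the 2 groups did not overlap for 17 collagen genes (38.6%), beside 30.0% of all genes. For 11 of these the sh*Pla2g4e* libraries were higher (15.5% of all genes) and for 6 lower (14.6%). Within pairs, 18 collagen genes were higher in all 3 pairs and 11 lower in all 3, beside 25.6% and 23.7% of all genes. The shares of all genes cover genes of every level. At least 10 reads in every library were reached by 39 of the 44 collagens and by 15312 of the 21876 genes tested. Shares over genes of like level were not computed.

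The median lay above 0 in all 3 classes. Fold changes are edgeR's log2 values of sh*Pla2g4e* over shCtrl, and 29 of the 44 were above 0. The median was 0.24 over the collagens and 0.029 over all genes tested. Among fibrillar collagens 1 was called higher and 0 lower, with a median of 0.31 and a range of −0.40 to 1.20. In the other collagens 3 were called higher and 1 lower, with a median of 0.25. Of the basement membrane collagens edgeR called 0, while 2 were higher and 2 lower at an unadjusted p under 0.05, limma after voom called 1 and DESeq2 called 2. Their median was 0.14, and it was −0.027 without shCtrl library 1 and −0.023 without sh*Pla2g4e* library 3. With the block, the calls were 4 higher and 1 lower among fibrillar, 2 and 2 among basement membrane, and 6 and 2 among other collagens. Within pairs 1 to 3 the class medians were 0.23, 0.11 and 0.34 for fibrillar, 0.067, 0.098 and 0.066 for basement membrane and 0.18, 0.47 and 0.088 for other collagens. No test of a difference between classes was made. The fibrillar median was 0.16 without shCtrl library 1 and 0.51 without sh*Pla2g4e* library 1, and the basement membrane median was 0.071 without sh*Pla2g4e* library 2 and 0.24 without library 1. Without sh*Pla2g4e* library 3, 9 collagens were called higher, and without that library or sh*Pla2g4e* library 1, 2 were called lower. Of the 27 collagens called neither with nor without the block, 7 changed sign without at least 1 library (*Col2a1*, *Col3a1*, *Col4a5*, *Col4a6*, *Col5a2*, *Col8a1* and *Col8a2*). For 24 of these 27 the log2 fold change moved by over 1.5 times without at least 1 library, the other 3 being *Col5a3*, *Col6a5* and *Col6a6*.

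**Figure D2:**
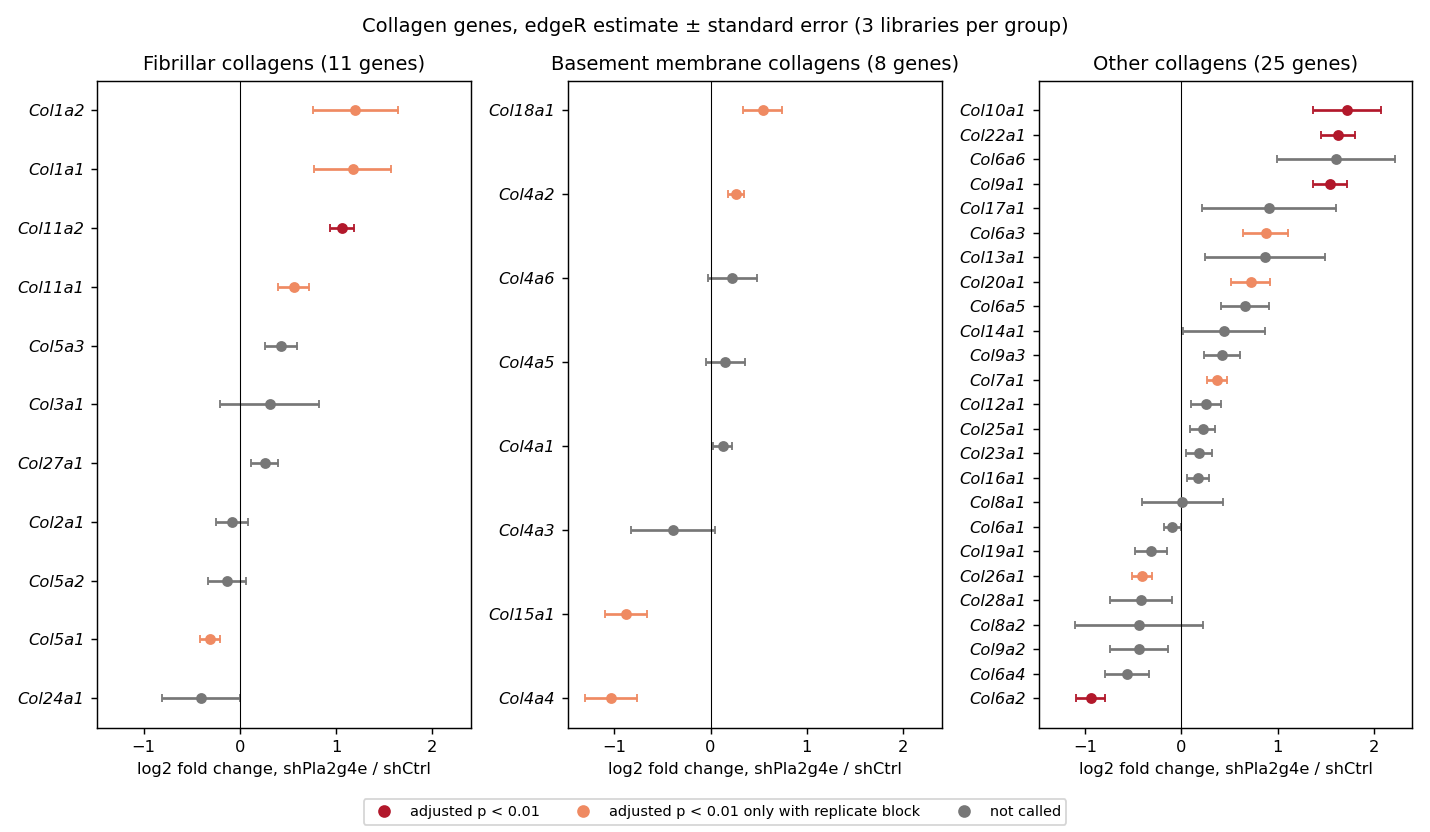
edgeR log2 fold change (shPla2g4e over shCtrl, 3 libraries per group) with its standard error for the fibrillar, basement membrane and other collagens, coloured by call. The medians are 0.31, 0.14 and 0.25, and the 5 genes called without the block are Col11a2 among the fibrillar and Col10a1, Col22a1, Col9a1 and Col6a2 among the other collagens.

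*Col22a1* had the smallest adjusted p of the collagens in edgeR's fit without the block, by little. With edgeR's robust fit its adjusted p was 8.8e-04, against 5.4e-06 for *Col9a1* and *Col11a2*. *Col22a1* encodes a FACIT of tissue junctions, best known where muscle joins tendon. Its level was 13.0, 8.61 and 14.1 CPM in shCtrl libraries 1 to 3 and 33.2, 30.3 and 46.9 CPM in sh*Pla2g4e* libraries 1 to 3. The lowest sh*Pla2g4e* library was more than 2 times as high as the highest shCtrl library. The log2 fold change was 1.62 (SE 0.177, edgeR's quasi-likelihood test, adjusted p = 2.0e-05), and the call held without any 1 of the 6 libraries.

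*Col9a1* was the second FACIT called higher. It encodes the α1 chain of type IX collagen, which joins the chains of *Col9a2* and *Col9a3* on the surface of cartilage and vitreous fibrils. It was at 4.61, 5.44 and 3.86 CPM in shCtrl and at 13.0, 11.8 and 15.8 CPM in sh*Pla2g4e* libraries, with a log2 fold change of 1.55 (SE 0.173, edgeR, adjusted p = 2.5e-05). The call held without any 1 library. The other two chains of the trimer were not called with all libraries. *Col9a3* was at 10.7, 10.2 and 13.8 CPM against 16.98, 18.8 and 10.5, higher in 2 pairs and lower in the other, with a log2 fold change of 0.42 (edgeR, adjusted p = 0.165), and without sh*Pla2g4e* library 3 it was called higher, with a log2 fold change of 0.63 and an adjusted p of 0.00715. *Col9a2* was at 2.38, 4.13 and 5.11 CPM against 2.34, 3.98 and 2.23, with a log2 fold change of −0.44 (edgeR, adjusted p = 0.401), which was −0.19 without shCtrl library 3, −0.69 without shCtrl library 1 and −0.76 without sh*Pla2g4e* library 2. The deposited counts do not separate the transcripts from the 2 starts of *Col9a1*.

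Among the other FACITs, *Col20a1* was called with the block and not without it. It was at 29.0, 26.1 and 23.6 CPM in shCtrl and 42.2, 60.8 and 26.2 CPM in sh*Pla2g4e* libraries, and each sh*Pla2g4e* library was above its pair although library 3 lay within the shCtrl range. Its log2 fold change was 0.72 (SE 0.201, edgeR, adjusted p = 0.0263, and 9.5e-07 with the block), 0.39 without sh*Pla2g4e* library 2, where its adjusted p was 0.146, and 0.97 without library 3, where it was called with an adjusted p of 3.4e-05. *Col16a1*, the most abundant FACIT, was at 45.7, 45.7 and 49.4 CPM against 43.7, 64.8 and 50.5 and was not called (log2 fold change 0.17, SE 0.118, edgeR, adjusted p = 0.398). Its log2 fold change was 0.0014 without sh*Pla2g4e* library 2 and 0.30 without library 1. *Col12a1*, *Col14a1* and *Col19a1* had log2 fold changes of 0.25, 0.45 and −0.31, with edgeR adjusted p-values of 0.344, 0.574 and 0.264. The value of *Col12a1* was 0.048 without sh*Pla2g4e* library 2, and that of *Col14a1* was 0.030 without library 1 and 0.78 without library 3. *Col19a1*, made by hippocampal interneurons, was lower in all 3 pairs, with −0.18 without sh*Pla2g4e* library 2.

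Of the fibrillar collagens, *Col11a2* was the one called. Its α2 chain of type XI collagen lies inside cartilage fibrils and limits their width. The level was 16.3, 14.9 and 19.0 CPM in shCtrl and 35.3, 40.0 and 29.7 CPM in sh*Pla2g4e* libraries, with a log2 fold change of 1.06 (SE 0.126, edgeR, adjusted p = 4.2e-05), and the call held without any 1 library. Its partner *Col11a1* was likewise called with the block and not without it. It was at 18.6, 19.1 and 24.9 CPM against 25.0, 40.7 and 26.6, so that the groups nearly met without overlap. This gave a log2 fold change of 0.56 (SE 0.165, edgeR, adjusted p = 0.0348, and 8.7e-05 with the block) and 0.30 without sh*Pla2g4e* library 2, and without library 3 it was called, with an adjusted p of 0.00982.

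The 2 chains of type I collagen, the main fibril of bone, skin and tendon, were low here. *Col1a1* was at 1.36, 3.22 and 1.38 CPM in shCtrl and 1.92, 5.09 and 6.51 in sh*Pla2g4e* libraries. *Col1a2* was at 0.970, 1.71 and 0.977 CPM against 0.962, 3.65 and 3.89. Library 3 differed most from its pair and library 1 least in both genes, and the ranges of the groups overlapped. Their log2 fold changes were 1.17 (SE 0.402, edgeR, adjusted p = 0.0682, and 4.6e-04 with the block) and 1.20 (SE 0.438, edgeR, adjusted p = 0.0873, and 0.00824 with the block). Without sh*Pla2g4e* library 1 both were called, with adjusted p-values of 0.00853 and 0.00582.

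*Col5a1* was called lower with the block and not without it. This chain of type V collagen, which seeds type I fibrils, was at 70.1, 72.1 and 93.5 CPM in shCtrl and 65.8, 62.3 and 62.2 CPM in sh*Pla2g4e* libraries. The groups did not overlap, but libraries 1 differed by little and libraries 3 by most. The log2 fold change was −0.31 (SE 0.103, edgeR, adjusted p = 0.0594, and 0.00233 with the block) and −0.16 without shCtrl library 3. The other type V chains were not called, with log2 fold changes of −0.13 for *Col5a2* and 0.43 for *Col5a3* (edgeR, adjusted p = 0.740 and 0.112). *Col2a1*, the cartilage fibril chain, *Col3a1*, *Col24a1* and *Col27a1* were not called either, with log2 fold changes of −0.081, 0.31, −0.40 and 0.26 and edgeR adjusted p-values of 0.263 to 0.822. Leaving out 1 library gave −0.066 (sh*Pla2g4e* library 2) to −0.67 (shCtrl library 2) for *Col24a1* and 0.16 for *Col27a1* (shCtrl library 1).

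Type VI collagen held the 1 collagen called lower. Its filaments are built from the chains of *Col6a1*, *Col6a2* and 1 of a group of longer chains, usually that of *Col6a3*. *Col6a2* was at 10.5, 10.1 and 10.7 CPM in shCtrl and 5.02, 5.41 and 5.83 CPM in sh*Pla2g4e* libraries, the tightest groups among the 5 collagens called. Its log2 fold change was −0.94 (SE 0.153, edgeR, adjusted p = 6.6e-04), and the highest adjusted p without any 1 library was 0.00494. *Col6a1*, which lies 85161 bases from *Col6a2* on chromosome 10 and is read in the same direction, was at 72.8, 75.2 and 85.0 CPM against 72.4, 68.1 and 77.8. It was not called (log2 fold change −0.096, SE 0.0871, edgeR, adjusted p = 0.553), with −0.026 without shCtrl library 3, −0.050 without sh*Pla2g4e* library 2 and −0.15 without library 3.

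*Col6a3* was called higher with the block and not without it. It was at 3.25, 3.22 and 2.84 CPM in shCtrl and 7.15, 5.83 and 4.0 CPM in sh*Pla2g4e* libraries, with no overlap. This was a log2 fold change of 0.88 (SE 0.230, edgeR, adjusted p = 0.0191, and 8.7e-04 with the block), and without sh*Pla2g4e* library 3 it was called, with an adjusted p of 0.00225. The remaining long chains were not called. *Col6a5* and *Col6a6* had log2 fold changes of 0.66 and 1.61 (edgeR, adjusted p = 0.101 and 0.106), and *Col6a4* had −0.56 (edgeR, adjusted p = 0.123), although for each of the 3 the groups did not overlap. The value of *Col6a4* was −0.36 without sh*Pla2g4e* library 3, and its pairs 1 and 3 differed by −0.066 and −1.29. *Col6a5* and *Col6a6* share 3.49% and 3.71% of their transcripts' 50-base stretches with other genes, and the part of this in their counts was not tested.

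The ratio between chains of 1 collagen type cancels the library scaling, and gene length drops out of its difference between groups. *Col6a2* to *Col6a1* was 0.144, 0.134 and 0.125 in shCtrl and 0.0693, 0.0795 and 0.0749 in sh*Pla2g4e* libraries, a log2 difference of −0.85. *Col6a3* to *Col6a2* was 0.310, 0.320 and 0.267 in shCtrl and 1.43, 1.08 and 0.686 in sh*Pla2g4e* libraries, a log2 difference of 1.77. The groups did not overlap for either ratio, while of the 3 chains *Col6a2* was the one called without the block. The log2 difference was 0.92 for *Col6a3* to *Col6a1*, 1.97 for *Col9a1* to *Col9a2*, 1.16 for *Col9a1* to *Col9a3*, 0.52 for *Col11a2* to *Col11a1* and −0.61 for *Col4a4* to *Col4a3*, all without overlap between groups. *Col4a2* to *Col4a1* was 1.08, 0.837 and 0.886 against 1.06, 0.959 and 1.06, which overlapped. With 3 libraries against 3 the exact two-sided permutation test cannot give less than 0.1. It gave 0.1 for each of the first 7 ratios and 0.4 for *Col4a2* to *Col4a1*, so that none of the 8 passed 0.05. The pairs of chains were chosen after the values of single genes were seen.

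**Figure D3:**
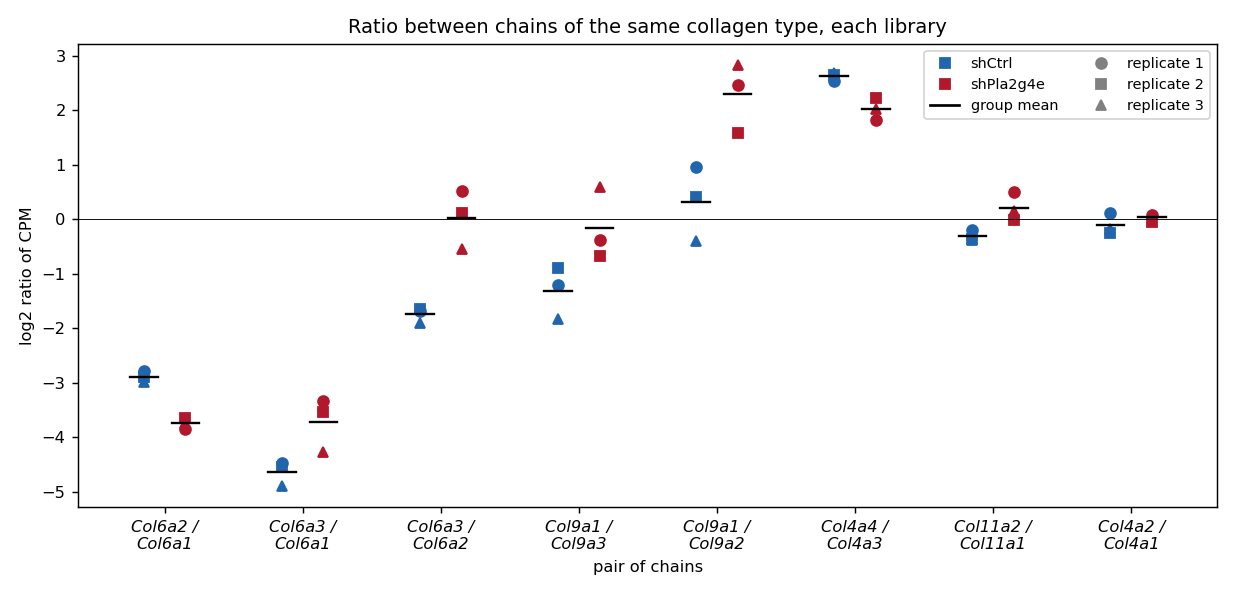
log2 ratio of the CPM of 2 chains of the same collagen type, 1 point per library (marker shape gives the replicate number), with the group mean as a bar. The groups are apart for 7 of the 8 ratios, with the largest shift, 1.97, for Col9a1 to Col9a2, and they overlap for Col4a2 to Col4a1.

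Within the basement membrane class the abundant chains differed by little. *Col4a2* was at 83.2, 78.2 and 80.5 CPM in shCtrl and 93.4, 104 and 93.2 CPM in sh*Pla2g4e* libraries, without overlap. Its log2 fold change was 0.27 (SE 0.0797, edgeR, adjusted p = 0.0379, and 0.00298 with the block). *Col4a1*, whose start overlaps that of *Col4a2* by 22 bases head to head on chromosome 8, was at 77.2, 93.5 and 90.8 CPM against 88.3, 108.5 and 88.3 and was not called (log2 fold change 0.13, SE 0.0992, edgeR, adjusted p = 0.486). The value of *Col4a1* was 0.045 without shCtrl library 1 and 0.019 without sh*Pla2g4e* library 2. *Col4a5*, a chain of kidney and lung basement membranes, was at 19.6, 27.9 and 30.9 CPM against 19.1, 30.3 and 38.3, and its spread within groups was larger than the difference. Its log2 fold change of 0.15 (SE 0.198, edgeR, adjusted p = 0.695) changed sign to −0.016 without shCtrl library 1 and to −0.084 without sh*Pla2g4e* library 3. *Col4a6* was not called, at a log2 fold change of 0.23 (edgeR, adjusted p = 0.644).

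Of the less abundant members of that class, *Col4a4* and *Col15a1* were called lower by edgeR with the block and not without it, and by DESeq2 (adjusted p = 0.00519 and 0.00535). *Col4a4* was at 7.03, 6.95 and 7.99 CPM in shCtrl and 3.39, 1.94 and 5.54 CPM in sh*Pla2g4e* libraries. *Col15a1*, the type XV collagen that links basement membranes to the matrix beneath, was at 6.02, 7.10 and 8.75 CPM against 4.89, 2.91 and 4.06. Neither overlapped between groups. Their log2 fold changes were −1.03 (SE 0.272, edgeR, adjusted p = 0.0194, and 8.1e-06 with the block) and −0.88 (SE 0.218, edgeR, adjusted p = 0.0136, and 1.5e-04 with the block), and *Col4a4* was called without sh*Pla2g4e* library 3, with an adjusted p of 3.3e-04. *Col4a3*, whose start lies 71 bases from that of *Col4a4* head to head on chromosome 1, was at 1.21, 1.11 and 1.24 CPM against 0.962, 0.416 and 1.37. Library 3 of *Col4a3* was thus above the shCtrl range, and the log2 fold change of −0.39 was not called (SE 0.434, edgeR, adjusted p = 0.641) and was −0.040 without sh*Pla2g4e* library 2 and −0.77 without library 3.

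*Col18a1*, the precursor of endostatin, was at 14.4, 14.8 and 15.3 CPM in shCtrl and 17.6, 31.8 and 15.3 CPM in sh*Pla2g4e* libraries. The difference rested on sh*Pla2g4e* library 2. The log2 fold change was 0.54 (SE 0.201, edgeR, adjusted p = 0.0937, and 0.00205 with the block), 0.15 without library 2, with an adjusted p of 0.571, and 0.73 without library 3, where it was called with an adjusted p of 0.00643. Of the other collagens called with the block, *Col20a1*, *Col11a1*, *Col11a2* and *Col4a2* were also highest in sh*Pla2g4e* library 2. The oligodendrocyte precursor marker *Gpr17* had 35.4, 19.3 and 34.0 CPM in shCtrl and 31.3, 70.9 and 19.3 CPM in sh*Pla2g4e* libraries, and the 12 oligodendrocyte lineage markers summed to 809 CPM in that library and to 613 to 695 CPM in the other 5. Of these 12, edgeR, limma after voom and DESeq2 each called 0, with 1 lower at an unadjusted p under 0.05, and with the block 1 was called lower (*Olig2*). Their part in the levels of these collagens was not tested.

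Of the remaining collagens, *Col10a1* had the largest fold change and few reads. It is the short-chain network collagen of hypertrophic cartilage. The level was 0.485, 0.554 and 0.888 CPM in shCtrl and 2.38, 1.99 and 2.06 CPM in sh*Pla2g4e* libraries, with a log2 fold change of 1.72 (SE 0.358, edgeR, adjusted p = 0.00434). The call was lost without shCtrl library 1 (adjusted p = 0.0199), shCtrl library 2 (0.0250), sh*Pla2g4e* library 1 (0.0267) or sh*Pla2g4e* library 2 (0.0118). The gene lies inside *Nt5dc1*, on the opposite strand, and 0.575% of its exon bases overlap exons of that gene. The counting kept no strand, and *Nt5dc1* was at 3.10 ± 0.729 CPM in shCtrl and 4.03 ± 1.23 in sh*Pla2g4e* (SD, n = 3, edgeR, adjusted p = 0.445). The part of *Nt5dc1* reads in the level of *Col10a1* was not tested. *Col8a1* and *Col8a2*, of the same class, had log2 fold changes of 0.011 and −0.44 (edgeR, adjusted p = 0.991 and 0.750).

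*Col26a1*, an EMI-domain collagen first described in testis and ovary, was among the most abundant collagens and was called lower by edgeR with the block and not without it, and by DESeq2 (adjusted p = 0.00639). It was at 76.4, 68.9 and 70.4 CPM in shCtrl and 63.5, 44.9 and 53.9 CPM in sh*Pla2g4e* libraries, without overlap. The log2 fold change was −0.41 (SE 0.108, edgeR, adjusted p = 0.0194, and 1.3e-05 with the block), and without sh*Pla2g4e* library 1 it was called, with an adjusted p of 0.00501. *Col7a1*, the collagen of the anchoring fibrils that fix epidermis to dermis, was called higher with the block and not without it. It was at 19.2, 17.6 and 17.5 CPM in shCtrl and 24.0, 22.9 and 23.3 CPM in sh*Pla2g4e* libraries (log2 fold change 0.37, SE 0.105, edgeR, adjusted p = 0.0286, and 0.00473 with the block). *Col28a1* was not called, at a log2 fold change of −0.42 (edgeR, adjusted p = 0.472), which was −0.15 without sh*Pla2g4e* library 2 and −0.77 without library 3.

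None of the 4 transmembrane collagens was called by edgeR, by limma after voom or by DESeq2, and 0 had an unadjusted p under 0.05. *Col25a1*, the neuronal collagen found in amyloid plaques, was at 28.1, 23.5 and 22.0 CPM in shCtrl and 32.5, 30.4 and 22.6 CPM in sh*Pla2g4e* libraries, higher in all 3 pairs with overlapping groups (log2 fold change 0.22, 95% interval −0.043 to 0.48). The value of *Col25a1* was 0.12 without sh*Pla2g4e* library 1, 0.15 without shCtrl library 3 and 0.36 without sh*Pla2g4e* library 3. *Col23a1* was likewise higher in all 3 pairs, with a log2 fold change of 0.18, and 0.087 without shCtrl library 1. *Col13a1* and *Col17a1* had few reads and standard errors of 0.623 and 0.692 on the log2 scale.

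**Figure D4:**
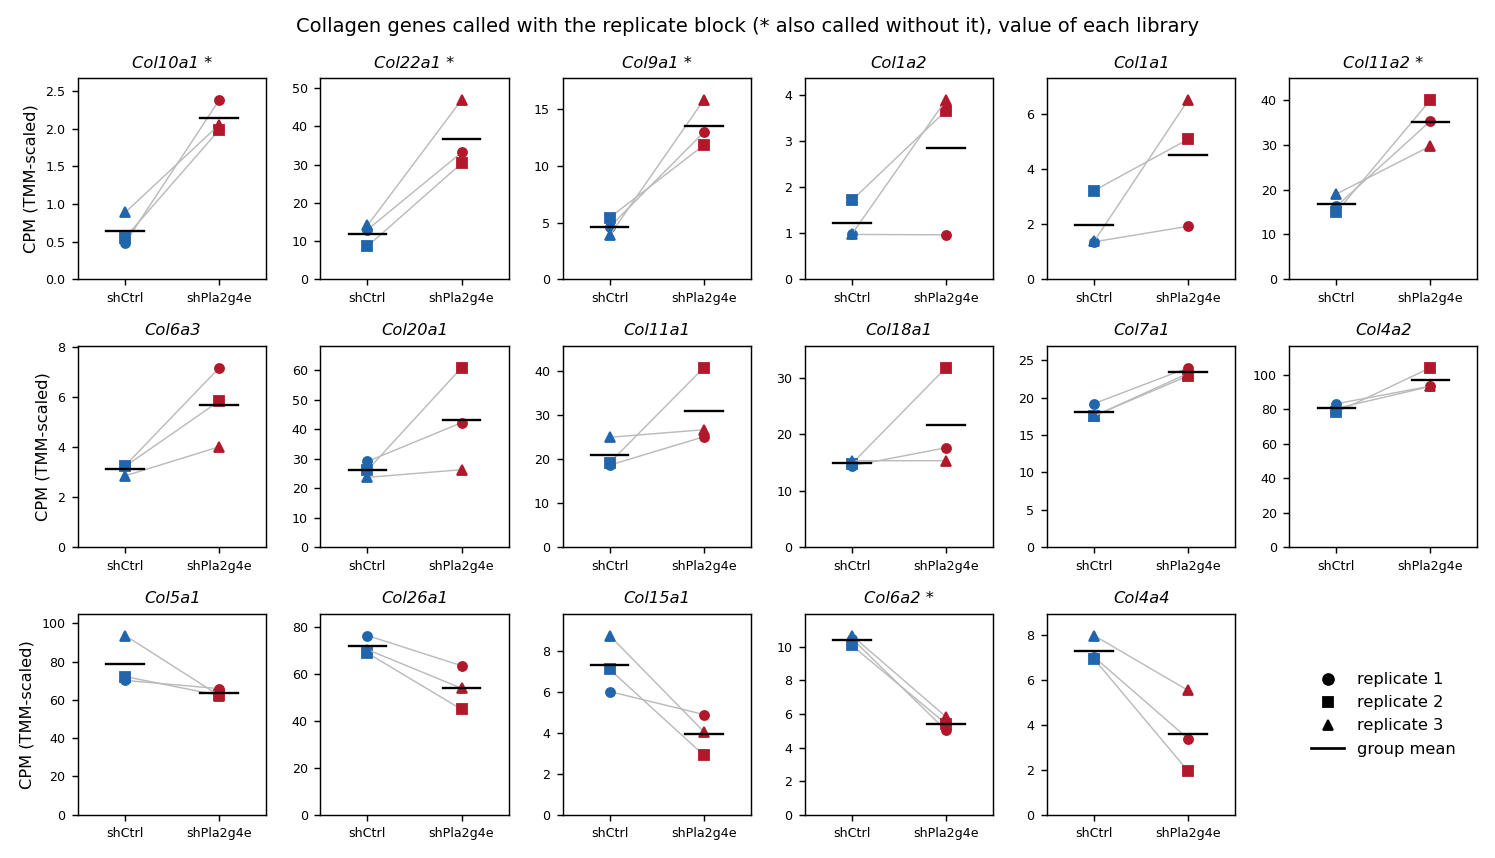
TMM-scaled CPM of each library for the 17 collagen genes called with the replicate block, with lines joining same-numbered libraries and bars at the group means; an asterisk marks the 5 also called without it. Both groups of Col6a2 are tight (10.1 to 10.7 and 5.02 to 5.83 CPM), whereas Col18a1 and Col20a1 stand highest in shPla2g4e library 2.

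The collagen transcripts were also searched for the 7 bases that match the seed of the sh2 guide, its bases 2 to 8. The guide and the target in *Pla2g4e* are printed with the seed and its match in capitals, followed by the 4 collagen 3′ UTRs that hold the match, each with 10 bases on either side (GENCODE vM21, GRCm38, 5′ to 3′ on the strand of the gene, coordinates of the 7 bases).
sh2 guide: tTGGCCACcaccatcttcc
sh2 target: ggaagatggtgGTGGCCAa
Col6a1 (chr10:76709333-76709339, minus strand): gtacatcatgGTGGCCAtcttgctgac
Col7a1 (chr9:108984538-108984544, plus strand): gatgcgcttgGTGGCCAgcagtccctg
Col23a1 (chr11:51580171-51580177, plus strand): tgcgccaactGTGGCCAtgtaacattt
Col26a1 (chr5:136742103-136742109, minus strand): gctaggggccGTGGCCAcacaccttga

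In the longest coding transcript, 4 of 41 collagen genes with a 3′ UTR (9.76%) held the match, beside 11.9% of 15460 genes tested. Over every annotated 3′ UTR the counts were 5 of 44 collagens (11.4%), with *Col18a1* added, and 14.6% of 15697 genes. Of the 5 collagens lower with the block, 1 held the match in a 3′ UTR, *Col26a1*. *Col7a1* and *Col18a1*, which were higher with the block, held the match there too, and *Col6a1* and *Col23a1* were not called. In coding sequence the match lay in 36.4% of the 44 collagens and 25.6% of 15816 genes, where the median coding length was 4618.5 bases for collagens and 1399.5 for all, and the median GC content 58.9% and 53.2%. Among the 5 collagens called without the block, *Col6a2* and *Col22a1* held 1 coding match each, and *Col9a1*, *Col11a2* and *Col10a1* held 0.

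The proteins that make, lay down and bind collagen were counted from lists of named genes. Of 19 genes for chain modification and folding tested, 2 were higher and 0 lower, beside 2.48% and 4.0% of all genes tested. *P4ha2*, a subunit of prolyl 4-hydroxylase, which stabilises the helix, was at 25.9, 25.2 and 28.3 CPM in shCtrl and 40.9, 39.9 and 42.5 CPM in sh*Pla2g4e* libraries (log2 fold change 0.63, SE 0.0921, edgeR, adjusted p = 2.7e-04). *Plod2*, a lysyl hydroxylase that prepares crosslinks, rose by a log2 fold change of 0.65 (SE 0.0961, edgeR, adjusted p = 2.9e-04). For both the call held without any 1 library. *P4hb*, the partner of *P4ha2*, had 0.23 (edgeR, adjusted p = 0.135), and 0.13 without sh*Pla2g4e* library 2.

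Of 20 genes for propeptide removal, crosslinking and assembly, 1 was higher and 1 lower, beside the same shares of all genes, 6.49% in either direction. The lysyl oxidase *Loxl2* had a log2 fold change of 0.86 and the peroxidasin *Pxdn*, which crosslinks type IV collagen, −0.39 (edgeR, adjusted p = 0.00584 and 0.00609), and both calls were lost without shCtrl library 2 or 3 or sh*Pla2g4e* library 1 or 2 (adjusted p from 0.0193 to 0.0473). Fibronectin (*Fn1*) and fibromodulin (*Fmod*) had 0.26 and −0.87 (edgeR, adjusted p = 0.0535 and 0.192, and 0.00540 and 2.6e-04 with the block). The groups overlapped for *Fmod*, whose log2 fold change was −0.37 without shCtrl library 3, −0.50 without sh*Pla2g4e* library 1 and −1.51 without sh*Pla2g4e* library 3, where it was called with an adjusted p of 0.00680.

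Of 11 collagen receptors tested, *Itga2* and *Lair1* were higher and *Itgb1* was lower, beside 6.49% of all genes called in either direction. *Itga2*, which pairs with *Itgb1* in the integrin α2β1, was at 1.75, 1.81 and 0.710 CPM in shCtrl and 6.36, 8.04 and 4.68 CPM in sh*Pla2g4e* libraries (log2 fold change 2.17, SE 0.308, edgeR, adjusted p = 2.1e-04). *Itgb1*, the β chain of all collagen-binding integrins, was at 115, 121 and 135 CPM against 76.1, 91.3 and 78.2 (log2 fold change −0.60, SE 0.0922, edgeR, adjusted p = 4.4e-04). *Lair1*, an inhibitory receptor of immune cells, had a log2 fold change of 1.21 (edgeR, adjusted p = 0.00333) and lost its call without shCtrl library 1 or 2 or sh*Pla2g4e* library 2 (adjusted p of 0.0101, 0.0234 and 0.0107).

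Of 14 collagen-degrading proteases and their inhibitors, edgeR called 0, with 1 higher and 3 lower at an unadjusted p under 0.05, and limma after voom and DESeq2 also called 0. With the block 1 was higher, the cathepsin *Ctsl* (log2 fold change 0.26), and 2 were lower, *Mmp16* (−0.31) and *Timp4* (−0.50), beside 15.5% of all genes called with the block.

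Of 15 other basement membrane proteins, 4 were higher and 0 lower, beside 2.48% and 4.0% of all genes. The laminin chain *Lama2* was at 11.8, 12.4 and 12.7 CPM in shCtrl and 24.6, 20.3 and 25.7 CPM in sh*Pla2g4e* libraries (log2 fold change 0.94, SE 0.122, edgeR, adjusted p = 1.0e-04). The laminin chains *Lama3* and *Lamb1* had 1.40 and 0.64 (edgeR, adjusted p = 0.00434 and 0.00967). The call of *Lama3* was lost without shCtrl library 1 or 2 or sh*Pla2g4e* library 2, and that of *Lamb1* without shCtrl library 2 or 3 or sh*Pla2g4e* library 1 or 2 (adjusted p from 0.0183 to 0.0522). With the block 6 were higher and 2 lower, beside 6.50% and 9.02% of all genes, the latter being *Nid2*, a nidogen that bridges laminin and type IV collagen, and *Lamb2*, with log2 fold changes of −0.99 and −0.42. Without sh*Pla2g4e* library 3 both were called lower without the block too, at −1.35 and −0.64, as was *Nid2* without shCtrl library 1.

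Cells of the meninges and vessels make much collagen, so their markers were read beside these values. The 14 fibroblast and meningeal markers tested summed to 147 to 164 CPM in shCtrl and 151 to 168 CPM in sh*Pla2g4e* libraries, with 0 called higher and 1 lower (*Prrx1*), and 8 of them averaged under 1 CPM. *Dcn*, which encodes the proteoglycan decorin, was at 14.8 to 19.8 CPM against 19.5 to 21.6. The 10 mural cell markers summed to 98.4 to 146 CPM against 106 to 151, with 0 called by edgeR, 0 at an unadjusted p under 0.05 and 0 by limma after voom or DESeq2. The 7 endothelial markers tested did not overlap, at 16.7 to 19.5 CPM against 25.2 to 31.9, with 0 called by edgeR or limma after voom, 2 higher at an unadjusted p under 0.05 and 1 called by DESeq2. With the block 2 of the 7 were called higher, *Egfl7* and *Kdr*, and all 7 had a log2 fold change above 0, with a median of 0.53. *Egfl7* made up most of that sum, while *Cldn5*, *Tie1*, *Emcn*, *Ly6c1* and *Sox17* fell under the minimum of 6 reads and 3 of the list's genes were at 0 reads in all libraries. The 7 choroid plexus markers summed to 4.75 to 10.7 CPM against 6.94 to 34.1, the highest value being that of sh*Pla2g4e* library 3, where *Ttr* was at 26.9 CPM. Of these 7, edgeR, limma after voom and DESeq2 each called 0, with 1 higher at an unadjusted p under 0.05. With the block *Ttr* was called higher, at a log2 fold change of 1.15, although it was higher in 2 pairs and lower in the other, and without the block its value was 1.44, and 0.0020 without that library. Of the 17 collagens called with the block, *Col22a1*, *Col9a1*, *Col1a1* and *Col1a2* were also at their highest in that library. The 8 markers of Cajal-Retzius cells, early neurons that make reelin, did not overlap in sum, at 308 to 350 CPM against 214 to 277, with 0 called higher and 2 lower, *Reln* and *Ndnf*. The 10 microglia markers summed to 23.7 to 35.2 CPM against 25.3 to 26.7, with a median log2 fold change of −0.68. Of these 10, edgeR, limma after voom and DESeq2 each called 0, with 1 higher and 3 lower at an unadjusted p under 0.05, and with the block 1 was called lower (*C1qc*). The part of these cells in the collagen levels was not tested.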

How the data were processed

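The authors aligned reads of polyA RNA libraries from a stranded kit with STAR and counted them over exons of genes with featureCounts 1.6.0. They deposited raw counts, 1 table per library, with no normalization. The submitters' processing notes name STAR 2.7.0d and GRCm39, and the tables carry GENCODE vM28 identifiers, whereas the methods name mm10 and GENCODE M18. The deposited tables give exon length and coordinates of GRCm39. The counting command recorded in the table headers sets no strand option, for which featureCounts ignores strand, so reads of genes on opposite strands cannot be told apart. Gene symbols came from GENCODE vM21 by gene identifier for 52081 of 55357 genes.

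From the counts, edgeR 4.0.16 in R 4.3.3 (TMM, glmQLFit, glmQLFTest) was fitted to the 21876 genes that reached 6 reads in any library, with Benjamini-Hochberg adjustment and a threshold of 0.01. Limma 3.58.1 after voom, which the study used, DESeq2 1.42.0, other scalings and filters, a replicate block and leaving out each library were alternatives. Subtracting group means left values that correlated at 0.392, 0.189 and 0.461 for same-numbered libraries and at −0.393 to 0.108 for others, over 10908 genes whose mean log2 CPM reached 3, so the numbers given in the labels were treated as pairs. Mean chi-square per gene was 5.65 to 14.0 within groups and 17.3 to 34.1 between them, so no library repeated another. The scripts were tested on simulated data. Values per library are given for collagens called with or without the block and averaging at least 1 CPM, and for the 3 most abundant of each class. *Col9a2*, *Col9a3*, *Col4a3*, *Col25a1*, *Nt5dc1*, *Gpr17* and the other marker genes were named after their values were seen. From each pathway list, called genes and the 3 of smallest p were named, except 1 that is not reported here. The collagens, lists and tests were chosen with earlier results of these data known.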

Additional observations from a re-analysis of the deposited data

How the results depend on the processing

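The number of collagens called higher was 4, and it was 10 with no filter, 12 with the replicate block, 9 at an adjusted p of 0.05 and 3 to 9 when 1 library was left out. The number called lower was 1, and it was 4 with DESeq2, 2 with limma after voom, 4 with no filter, 5 with the replicate block, 4 at an adjusted p of 0.05 and 1 to 2 when 1 library was left out. The cause of these shifts was not tested. The 5 genes called were among those called under each of these settings, except *Col10a1* without 4 of the libraries. The fibrillar median of 0.31 ranged from 0.16 to 0.51 when 1 library was left out. The basement membrane median of 0.14 was 0.17 with at least 10 reads in every library (7 genes), 0.21 with scaling by library size alone, which moved the median of all genes from 0.029 to 0.10, 0.17 with upper-quartile scaling, 0.11 with limma after voom and −0.027 to 0.24 when 1 library was left out. The median of the other collagens moved by less than the spread between pairs under every alternative run. Over the 21 collagens that the rule gave per library and 17 alternatives, 309 of 357 values kept their direction and call, 42 kept the direction and gained a call, 4 lost one (*Col10a1*) and 2 changed sign (*Col4a5*, at 0.15, to −0.016 and −0.084, with a range of −0.084 to 0.39 when 1 library was left out). The number of assembly genes called, 2, was 1 with library size alone or upper-quartile scaling, 4 with the replicate block and 0 to 4 when 1 library was left out. Breakdown genes called, 0, were 1 with no filter, 3 with the block and 0 to 1 when 1 library was left out, and other basement membrane genes called, 4, were 7, 8 and 2 to 6. The 5 collagens under 1 CPM in shCtrl had standard errors of 0.358 to 0.692 on the log2 scale, and *Col8a2* and *Col3a1*, at 1.59 and 1.02 CPM, had 0.666 and 0.515. The part of depth in these errors was not tested.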
